A study of Homo sapiens with 4 samples.

Results

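The 9 transcripts described here encode factors of the cytosolic heat shock response and were measured in HEK293T, a cell line from human embryonic kidney: HSF1, HSPA8, HSP90AA1, HSP90AB1, DNAJB1, HSPH1, BAG3, HSPB1 and HIKESHI. They were taken by gene symbol from the 15209 gene names with a listed N6-methyladenosine (m6A) site, and all 9 had listed sites. Untreated wild-type cells (control, 2 libraries) were compared with cells that were seeded for 24 h and then given ascorbic acid for 36 h, with new medium every 6 h (2 libraries). The sources used here give no dose, and do not say whether the controls had the same changes of medium. Messenger RNA was treated by GLORI, a chemical deamination after which plain adenosine reads as G but m6A keeps reading as A, so a site's m6A level is its percentage of reads with A. The labels do not say that the libraries of a group came from separate cultures, so the p-values measure only how much these 4 samples differ, which may be technical.

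When proteins unfold, HSF1 is freed from chaperones, forms trimers and binds heat shock elements in the promoters of chaperone genes. The HSP70 family binds exposed hydrophobic stretches and is driven by J-domain proteins and nucleotide exchange factors, while HSP90 finishes the folding of many kinases and receptors. The m6A mark is placed mostly near stop codons and in the last exon, and an adenosine next to the cap can carry the related mark m6Am, which GLORI also reads as A. Methylation near the start of HSP70 messages has been linked to their translation during heat shock.

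The members had 122 listed sites of 218950 in the series, with 69 and 87 in the controls and 73 and 76 after treatment. A site was tested if every library listed it on 20 or more reads, which left 52 of the series' 78509, with 21 to 11416 reads per library and a median of 243.5. The lists hold no level under 10%, so a site that drops below that limit cannot be counted as a fall. Libraries held 22592887 to 28562744 reads of A plus G at listed sites. Of the HEK293T markers VIM, NEFM, NEFL, KRT18, KRT8, NES, PAX2 and LHX1, the first 4 had listed sites in every library. KRT8 and NES had them in only part of the libraries, and PAX2 and LHX1 in none. Of 17 markers of other cell types none had listed sites in every library, while COL1A1 and COL3A1 had them in part of the libraries. A gene enters the lists through a methylated site, so this does not measure expression. The unconverted share, the part of unmethylated adenosine still read as A, stood apart in control 2: over the members it was 3.35% to 5.94% there, against 1.95% to 4.52% in control 1, 2.13% to 4.63% in ascorbic acid 1 and 2.39% to 4.87% in ascorbic acid 2.

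Some of the listed adenosines lie at the start of the transcript, and their sequences are shown because their levels are set against those of other sites further on. RefSeq promoter sequences (GRCh38.p14) matched 8 of the 9 members, all but HSF1. The listed adenosine is in capitals, and the strands run 5′ to 3′.
HSP90AA1 (chr14:102087035-102087064, minus strand): aggcgcgggggtggcgcgtcAgttgcttca
HSP90AB1 (chr6:44247077-44247106, plus strand): ggcgacttggggcacgcagtAgctctctcg
BAG3, first site (chr10:119651362-119651391, plus strand): gactcagggcggagctccgcAtccaacccc
HSPB1 (chr7:76302655-76302684, plus strand): agccgagcccagcgccccgcActtttctga
BAG3, second site (chr10:119651394-119651423, plus strand): gccgcggccaacttctctggActggaccag

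The HSP90AA1 adenosine is the first base of the annotated transcript. The BAG3 first site and the HSPB1 site lie 2 nt after the annotated start, and the HSP90AB1 site is 4 nt before it. Of these 5 adenosines, the second BAG3 site, 34 nt after the start, has the sequence GGACT, which is the commonest context of m6A. Over the whole series the reference base was A at all 7318 listed sites that fall inside a promoter window.

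The promoters were searched for inverted pairs of the unit of the heat shock element, GAANNTTC and TTCNNGAA, each of which reads the same on both strands and which can overlap each other. In the 250 bases before each start, 5 of 13 annotated starts of the members held a match, belonging to DNAJB1, HSP90AA1, HSP90AB1, HSPA8 and HSPB1, against 11.6% of all 35116 promoters in the table. The matched bases are in capitals in the following stretches, shown because the members were grouped as genes of this response.
HSP90AA1 (chr14:102087095-102087142, minus strand): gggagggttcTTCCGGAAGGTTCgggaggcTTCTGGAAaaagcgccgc
DNAJB1 (chr19:14518427-14518484, minus strand): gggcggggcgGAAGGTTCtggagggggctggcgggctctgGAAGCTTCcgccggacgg
HSPA8 (chr11:123062169-123062201, minus strand): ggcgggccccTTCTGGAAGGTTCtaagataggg
HSPB1 (chr7:76302481-76302508, plus strand): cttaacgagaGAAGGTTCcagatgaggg
For HSP90AB1 the matches lie before its most downstream start, at position 44247943. A match describes letters only and shows no binding.

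m6A was lower with ascorbic acid in part of these transcripts, most of all in HSF1. Of the 52 tested sites 15 fell and none rose, and 37 did not pass (edgeR's quasi-likelihood test of A against G, Benjamini-Hochberg adjusted p of 0.05 over all 78509 sites). That is 28.8% of the members' sites, close to the 25.7% of all tested sites that fell, so the count is no sign of a loss particular to these genes. Over the series 0.219% of sites rose. At an unadjusted p of 0.05 edgeR also gave no rising member site, and neither did limma or DESeq2 after adjustment. By any amount 41 sites were lower and 11 higher. Both ascorbic acid libraries lay below both controls at 29 sites (55.8%, against 55.4% of all tested sites) and above both at 1 site, in DNAJB1, against 4.22% of all tested sites. The median change was -2.60 percentage points for the members and -4.89 for all tested sites. The 15 falls became 8 without ascorbic acid 1, 7 without ascorbic acid 2, 12 without control 1 and 11 without control 2. The share of all tested sites that fell also dropped from 25.7%, to 17.2%, 15.8%, 21.6% and 17.2% in that order. DESeq2 called 11 member falls, with 16.7% of all tested sites. Limma called 5, with 13.3% of all tested sites, of which 4 were among the 15 (HSF1 144314570, DNAJB1 14516881, HSPH1 31137328 and BAG3 119676541) and the other was BAG3 119677356.

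Summed over tested sites, HSF1, HSPH1, DNAJB1, HSP90AB1 and HSPA8 fell, while BAG3, HSP90AA1, HIKESHI and HSPB1 did not pass (edgeR over 10782 genes). Thus 5 of 9 genes fell, 55.6%, against 56.7% of all genes, and none rose, as for all but 0.297% of genes. In 6 of the 9 genes, those that fell and BAG3, both treated libraries lay below both controls, as in 76.7% of all genes. With limma 1 of the 9 genes fell, HSF1, while 38.1% of all genes did. The median log2 change in the odds of A was -0.21 for the members and -0.39 for all genes. The share of genes that fall grows with the number of tested sites. Among genes with 10 or more sites 78.9% fell, and of the members there DNAJB1 fell and BAG3 did not pass. Among genes with 3 to 9 sites it was 62.8%, with HSF1, HSPA8 and HSPH1 falling and HSP90AA1 not passing. Among genes with 1 to 2 sites it was 33.2%, with HSP90AB1 falling and HSPB1 and HIKESHI not passing.

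**Figure D1:**
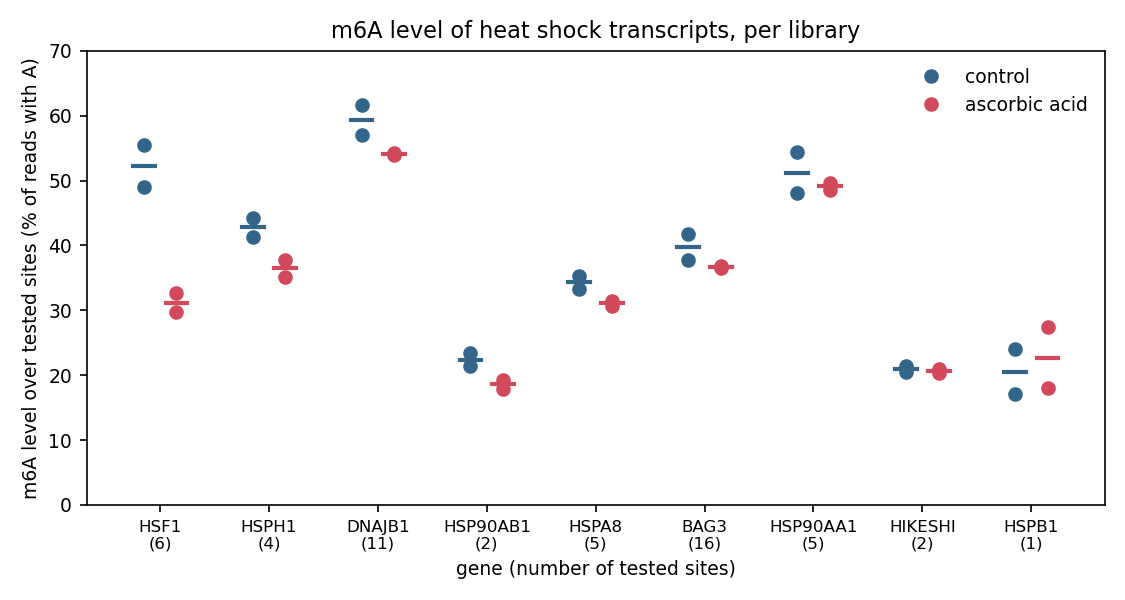
Percent of reads with A (y axis) summed per gene over its tested sites (x axis, their number in brackets), with 1 point per library and a bar at the mean of each group. HSF1 shows the widest gap, from 48.9% and 55.4% in control to 29.8% and 32.6% with ascorbic acid, while the points of HIKESHI and HSPB1 overlap.

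HSF1 (chromosome 8, 144291604 to 144314720, plus strand), the transcription factor that drives the response, had 6 tested sites. Its summed level was 48.9% and 55.4% in control, against 29.8% and 32.6% after treatment. The groups did not overlap. The mean went from 52.2% ± 4.57 to 31.2% ± 2.03 (SD, n = 2 per group), a log2 odds change of -1.27 (SE 0.103, edgeR adjusted p = 2.25e-09), and it passed in all 10 alternatives. Corrected for the gene's unconverted share in each library, the change was -21.3 points, against -21.0 before.

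The HSF1 sites that fell were 3 positions within 406 nt of the annotated 3′ end of the gene. The site at 144314570, 150 nt before the end, read 68.3% and 69.1% in control and 34.7% and 41.4% after treatment on 1359 to 1636 reads. Both controls were far above both treated libraries (log2 odds -1.84, SE 0.113, edgeR adjusted p = 2.71e-17). It is the deepest HSF1 site and so weighs most in the sum. The site at 144314452 read 45.6% and 49.6% in control and 33.1% and 34.0% after treatment, and the groups were again separate (-0.85 log2 odds, SE 0.136, edgeR adjusted p = 3.23e-06). The site at 144314314 read 20.1% and 24.4% against 12.6% and 10.3% (-1.13 log2 odds, SE 0.195, edgeR adjusted p = 1.02e-05). With limma the latter pair did not pass (adjusted p = 0.0729 and 0.0513).

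The other HSF1 sites did not pass. At 144309872, which lies 4848 nt before the gene end, control read 22.5% and 32.7% and ascorbic acid 33.1% and 27.6%, so the groups overlapped. The last sites, 43 and 39 nt before the end, read 17.0%, 16.7%, 13.1% and 22.9% and then 19.7%, 27.0%, 21.2% and 20.5%, in the order control 1, control 2, ascorbic acid 1, ascorbic acid 2. Both also overlapped, on 37 to 109 reads. The genes closest to HSF1 in summed level over the 4 libraries, by Euclidean distance among 7235 genes with at least 3 tested sites, were ADGRL3 (distance 2.62 points, log2 odds -1.42) and ACP6 (3.29 points, -1.37).

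**Figure D2:**
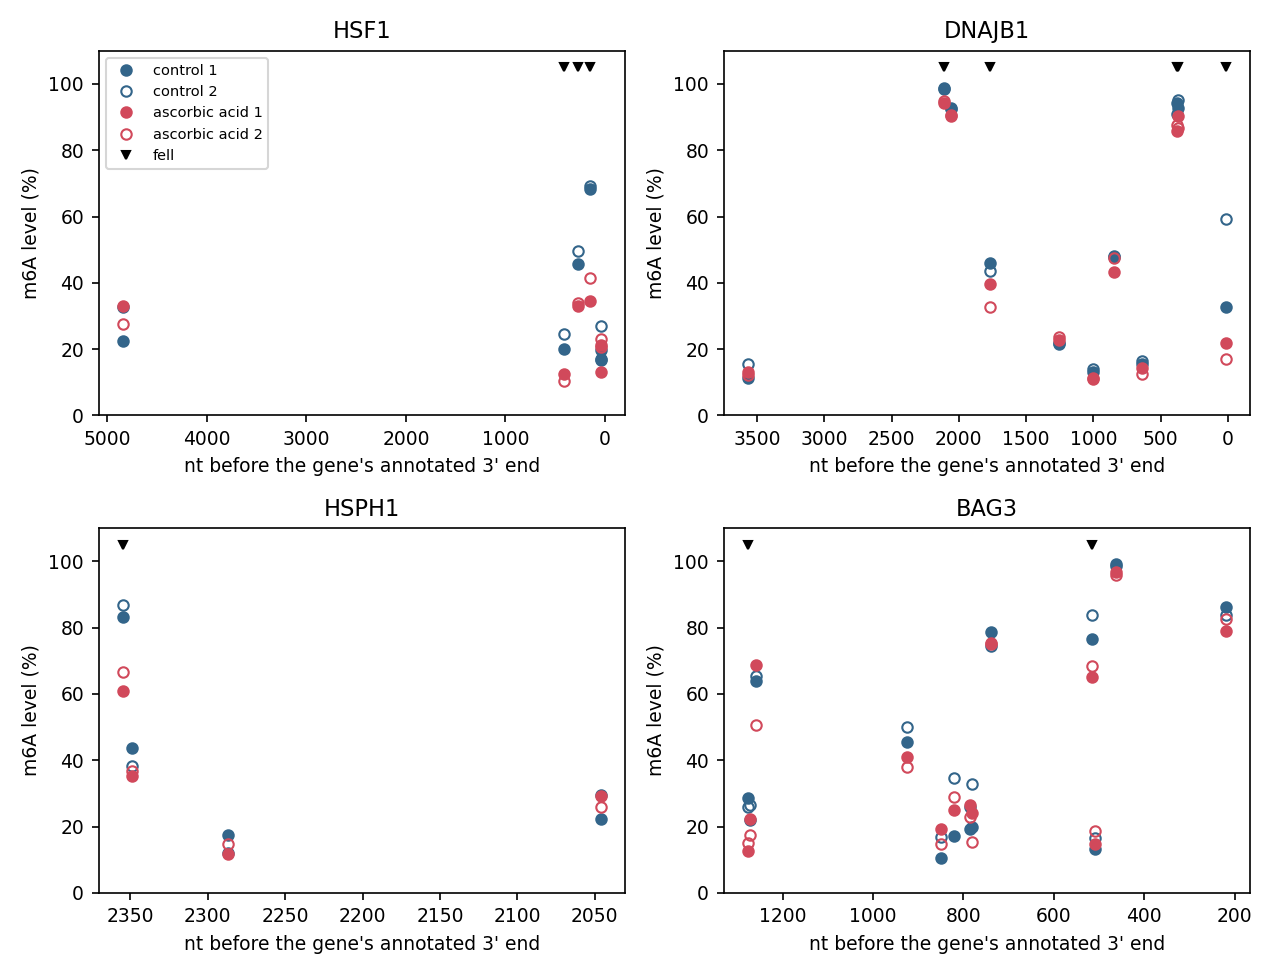
m6A level (y axis) of tested sites against nt before the gene's 3′ end (x axis, the end to the right) for HSF1, DNAJB1, HSPH1 and BAG3, with filled points for replicate 1, open points for replicate 2 and triangles over sites that fell by edgeR. For BAG3 the 3 sites nearest its start are not drawn. In HSF1 the 3 marked sites lie together near the end, and in DNAJB1 the marked sites are spread over the transcript.

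The HSP70 machinery holds HSPA8, the constitutive HSP70, with its J-domain partner DNAJB1, the nucleotide exchange factor HSPH1 and the cochaperone BAG3. HSPA8 (chromosome 11, 123057489 to 123062462, minus strand) was 33.3% and 35.3% in control and 30.6% and 31.5% after treatment over 5 sites. The groups were separate but close (34.3% ± 1.41 to 31.1% ± 0.609, SD, n = 2, log2 odds -0.21, SE 0.0721, edgeR adjusted p = 0.0164). The HSPA8 call ended without ascorbic acid 1 (adjusted p = 0.228), without ascorbic acid 2 (0.112) and with limma (0.153).

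All 5 HSPA8 sites were lower in both treated libraries than in both controls, as were 55.4% of all tested sites. Of the 5 HSPA8 sites 2 passed. Those at 123059649 and 123059681 lie close together and may share reads. The site at 123059519 read 19.2% and 20.6% in control and 16.3% and 14.6% after treatment (-0.44 log2 odds, SE 0.109, edgeR adjusted p = 0.00168, or 0.151 without ascorbic acid 2). The site at 123059838 read 44.0% and 49.4% against 42.0% and 39.0% (-0.36 log2 odds, SE 0.123, edgeR adjusted p = 0.0271). That call ended without control 2 (adjusted p = 0.293), ascorbic acid 1 (0.0858) or ascorbic acid 2 (0.354) and with DESeq2 (0.110). The strongest HSPA8 site, at 123059681, went from 73.6% and 73.0% to 69.6% and 70.1% and did not pass (edgeR adjusted p = 0.0924).

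HSPA8 has many processed copies in the genome, and 9 of them had listed sites. HSPA8P5 carried more reads at its 4 tested sites than HSPA8 itself, 23501 to 27682 per library against 6203 to 8328. Reads of these genes cannot be assigned with certainty, so the HSPA8 values may hold only part of its reads. HSPA8P5 went from 52.2% and 53.6% to 47.8% and 49.0% (edgeR adjusted p = 0.00181), and HSPA8P8 from 41.5% and 44.1% to 37.3% and 37.0% (edgeR adjusted p = 0.000389). Altogether 19 numbered copies had listed sites, 103 of them: HSPA8P1, P5, P6, P7, P8, P9, P11, P14 and P18, HSP90AA2P, AA3P, AA5P and AA6P, and HSP90AB2P to AB7P. Of the 13 copies that could be tested 4 fell and 9 did not pass (edgeR). Besides HSPA8P5 and HSPA8P8 those that fell were HSP90AA3P and HSP90AB7P. Among all genes 56.7% fell, and among genes with 1 to 2 tested sites, as most of the copies had, 33.2%.

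DNAJB1 (chromosome 19, 14514769 to 14560391, minus strand) was the most highly methylated of the 9 by its summed level, with 57.0% and 61.6% in control and 54.0% and 54.3% after treatment over 11 sites. The treated libraries lay below both controls, and the controls lay further apart from each other than ascorbic acid from control 1. The mean went from 59.3% ± 3.30 to 54.2% ± 0.236 (SD, n = 2, log2 odds -0.30, SE 0.0811, edgeR adjusted p = 0.00347), and limma did not call it (adjusted p = 0.132).

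The 5 DNAJB1 sites that fell span a wide range of levels. The site at 14516881, nearly always methylated, read 98.5% and 98.7% in control and 94.1% and 94.9% after treatment on 728 to 972 reads. That is a small step in points but a large one in odds (-2.00 log2 odds, SE 0.294, edgeR adjusted p = 5.93e-07), and it passed in all 10 alternatives. The neighbouring sites at 14515140 and 14515147 read 92.9% and 95.1% against 90.5% and 86.8%, and 94.3% and 90.8% against 85.7% and 87.7%. They lie 7 nt apart and share reads, so they are not independent (edgeR adjusted p = 0.00456 and 0.00245). The site at 14516536 went from 46.0% and 43.4% to 39.5% and 32.6% (-0.53 log2 odds, SE 0.142, edgeR adjusted p = 0.00370).

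The widest DNAJB1 difference in points was at 14514785, 16 nt from the gene end, with 32.8% and 59.3% in control and 22.0% and 17.0% after treatment. It rests on 27 to 58 reads, and the controls differed from each other by more than control 1 did from the treated libraries (edgeR adjusted p = 0.0130). It did not pass without control 2 (adjusted p = 0.203), ascorbic acid 1 (0.0661) or ascorbic acid 2 (0.179), nor with DESeq2 (0.0807). The call at 14515140 was lost without control 2 (0.143) or ascorbic acid 2 (0.194), at 14515147 without control 1 (0.0984) or ascorbic acid 1 (0.0917), and at 14516536 without control 1 (0.0746) or ascorbic acid 2 (0.278). The 6 DNAJB1 sites that did not pass include its deepest, at 14516824, with 92.4% and 92.7% in control and 90.7% and 90.4% after treatment on 1226 to 1475 reads. KAT6A (distance 1.21 points) and CBX2 (1.42 points) were closest to DNAJB1 in summed level.

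HSPH1 (chromosome 13, 31134973 to 31162388, minus strand), an HSP110 exchange factor, was 44.3% and 41.2% in control and 35.2% and 37.7% after treatment over 4 sites. The groups were separate (42.8% ± 2.16 to 36.5% ± 1.80, SD, n = 2, log2 odds -0.39, SE 0.119, edgeR adjusted p = 0.00894). A single position passed. The site at 31137328 read 83.1% and 86.7% in control and 60.8% and 66.5% after treatment on 166 to 284 reads (-1.64 log2 odds, SE 0.231, edgeR adjusted p = 2.57e-07), and it passed in all 9 alternatives that tested it. A second listed site lies 6 nt away at 31137322, with 43.5% and 38.3% against 35.2% and 36.8%, and did not pass (edgeR adjusted p = 0.253). Without this pair HSPH1 kept 2 sites and did not pass (adjusted p = 0.562), nor did it without control 1 (0.0713) or ascorbic acid 1 (0.117).

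HSPH1 also had 13 of its 22 listed sites in a single library, against 50 of 122 for all members. The levels of those 50 sites ran from 10.1% to 40.0% with a median of 11.7%, close to the limit of the lists, while sites listed in all 4 libraries had a median of 27.6% in control. Control 2 alone held 18 of them, with a median of 11.6%, and control 1 alone held 4. The high unconverted share of control 2 moves with that number, and its part in it was not tested.

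BAG3 (chromosome 10, 119651380 to 119677819, plus strand) links HSP70 to selective autophagy and had the most tested sites, 16. Its summed level was 37.8% and 41.8% in control and 36.8% and 36.4% after treatment, and the treated libraries lay just below control 1. The change did not pass (39.8% ± 2.84 to 36.6% ± 0.278, SD, n = 2, log2 odds -0.19, SE 0.0940, edgeR adjusted p = 0.0898), but without control 1 it did (adjusted p = 0.00156). Of its 16 sites 14 did not pass. The fully methylated site at 119677356 read 99.2% and 98.7% in control and 96.9% and 95.8% after treatment (edgeR adjusted p = 0.128), and that at 119677081 read 78.7% and 74.3% against 75.2% and 75.2%.

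The pair of BAG3 sites that fell differ in level. The site at 119677304, 515 nt before the gene end, read 76.6% and 83.8% in control and 65.1% and 68.3% after treatment on 104 to 141 reads (-0.97 log2 odds, SE 0.308, edgeR adjusted p = 0.0151). The site at 119676541 read 28.6% and 25.9% against 12.5% and 14.9% on 58 to 112 reads (-1.24 log2 odds, SE 0.385, edgeR adjusted p = 0.0129). Another listed site lies 6 nt from the latter and read 22.1%, 26.4%, 22.2% and 17.3%, in the same order of libraries as above, without passing. Neither fall was called by DESeq2 (adjusted p = 0.0863 and 0.0828). The first was lost without control 2 (0.164), ascorbic acid 1 (0.155) or ascorbic acid 2 (0.0719), and the second without control 1 (0.138), ascorbic acid 1 (0.112) or ascorbic acid 2 (0.0705). SAE1 (distance 1.53 points) and IKBIP (1.60 points) were closest to BAG3 in summed level.

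The cytosolic HSP90 genes are the stress-inducible HSP90AA1 and the constitutive HSP90AB1. HSP90AB1 (chromosome 6, 44246194 to 44253883, plus strand) was 21.4% and 23.3% in control and 17.9% and 19.3% after treatment over 2 sites. The groups were separate (22.4% ± 1.36 to 18.6% ± 0.937, SD, n = 2, log2 odds -0.34, SE 0.0742, edgeR adjusted p = 0.000706). HSP90AB1 did not pass without ascorbic acid 1 (adjusted p = 0.0732) and with limma (0.0815). Nearly all reads came from the site at 44253271, 612 nt before the gene end, which had 10396 to 11416 reads per library and read 19.4% and 20.6% in control against 15.6% and 16.5%. That site fell (-0.39 log2 odds, SE 0.0803, edgeR adjusted p = 0.000193), and without ascorbic acid 1 it did not pass (adjusted p = 0.104).

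HSP90AA1 (chromosome 14, 102080742 to 102139749, minus strand) was 48.1% and 54.3% in control and 48.6% and 49.7% after treatment over 5 sites, so the groups overlapped (log2 odds -0.12, SE 0.0914, edgeR adjusted p = 0.273). Without control 1 it fell (adjusted p = 9.85e-06), and without control 2 the change turned to 0.06 in log2 odds (adjusted p = 0.414). The internal site at 102086025 read 34.6% and 34.5% in control and 31.0% and 30.2% after treatment on 1999 to 2722 reads. It fell (-0.26 log2 odds, SE 0.0936, edgeR adjusted p = 0.0343), though not without control 1 (adjusted p = 0.0607), ascorbic acid 1 (0.177) or ascorbic acid 2 (0.310). A distal start of this gene, at the far end of its span, had sites 406 and 211 nt downstream, at 102139343 and 102139538. The first read 22.6% and 30.2% against 19.3% and 15%, and the second 31.8% and 28.9% against 11.5% and 28.6%, and neither passed (edgeR adjusted p = 0.136 and 0.398). Both HSP90 genes have copies that share sequence, 4 of HSP90AA1 and 6 of HSP90AB1 with listed sites, so their reads too are open to mixing.

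No site at a transcript start passed the test. The HSP90AA1 site at 102087044, whose sequence is shown above, read 71.4% and 72.6% in control and 71.3% and 70.2% after treatment on 1809 to 3044 reads. The change was small (-0.09 log2 odds, SE 0.0958, edgeR adjusted p = 0.531). The HSP90AB1 start site at 44247097 read 55.3% and 58.9% against 55.3% and 56.1% on 628 to 876 reads (-0.09 log2 odds, SE 0.127, edgeR adjusted p = 0.663). The first BAG3 site at 119651382 read 26.0% and 39.4% against 32.7% and 40.4%, and the second, at 119651414, 25.6% and 28.0% against 20.4% and 29.3%. The groups overlapped at the sites of HSP90AB1 and BAG3, while at the first base of HSP90AA1 both treated libraries lay just below both controls.

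Sites within 100 nt of an annotated start numbered 8 among the members with known starts, a class chosen after their values were seen. None of the 8 fell or rose by edgeR, none had an unadjusted p under 0.05 (the smallest was 0.332), and none was called by limma or DESeq2. Of the 38 sites farther away 12 fell. Of the 2028 tested sites of the series within 100 nt of an annotated start 4.44% fell. That class is low in level: 5 of the 8 member sites were under 30% in control, where 8.37% of all tested sites and 1.42% of those within 100 nt of a start fell. The other 3 were at 30% or more, where 9.45% of sites within 100 nt fell. With so few sites, a count of 0 does not set these members apart. Over the whole series 1190 tested sites lay within 10 nt of an annotated start, and 0.924% of them fell and 0.42% rose, against 26.0% falling among the other 77319. The classes differ in level and depth, so sites at 50% to 80% in control with at least 100 reads in every library were set side by side. There 1 of 42 start sites fell (2.38%), against 51.7% of 6879 others, and the median change was -0.38 points against -8.25. Whether these positions carry m6A or m6Am cannot be read from these data.

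**Figure D3:**
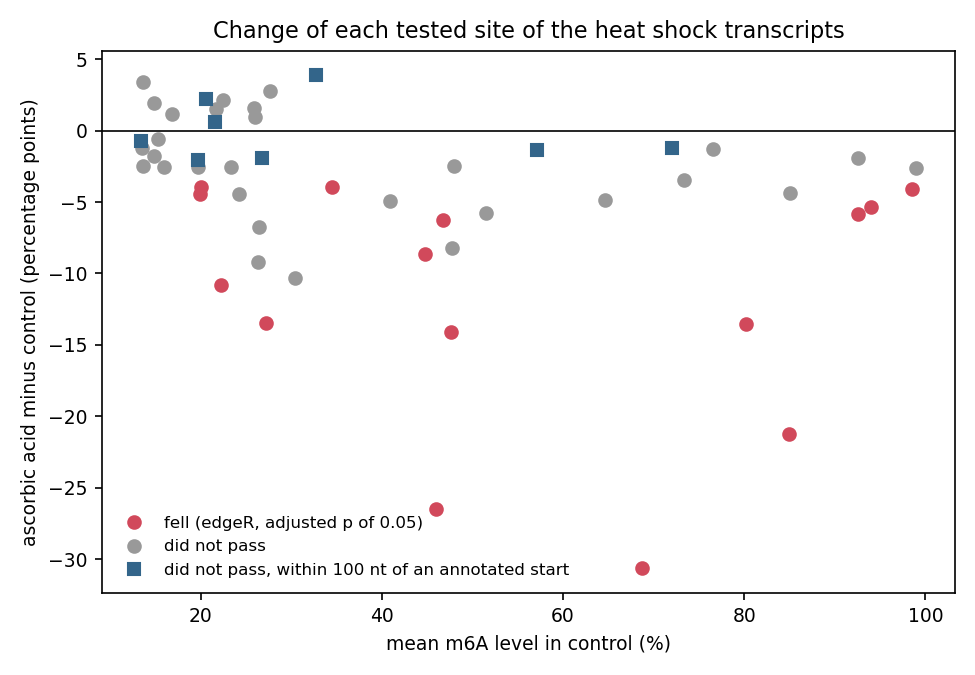
Change in mean m6A level with ascorbic acid (y axis, percentage points) against the mean level in control (x axis, percent) for the 52 tested sites, 1 point per site, coloured by the edgeR call, with squares for sites within 100 nt of an annotated start. The 15 sites that fell reach down to -30.6 points, while the 8 sites near a start lie between -2.07 and 3.87 points.

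By level in control, 4 of 27 member sites under 30% fell (14.8%, against 8.37% of all tested sites at that level), 5 of 12 at 30% to 60% (41.7%, against 21.4%) and 6 of 13 at 60% or more (46.2%, against 49.1%). For the members the median change was -1.76 points under 30%, -6.00 at 30% to 60% and -4.34 at 60% or more. For all tested sites it was -2.02, -6.17 and -9.53, so the members' higher shares came without larger median falls. Read depth, on which a call also depends, was not matched here. The 3 sites that lost over 20 points were in HSF1, DNAJB1 and HSPH1.

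HSPB1 and HIKESHI passed for coverage and not for m6A, where only sites near their starts were tested. HSPB1 (chromosome 7, 76302673 to 76304292, plus strand) encodes HSP27, a small heat shock protein that holds unfolded proteins and protects the cytoskeleton. Its gene coverage, scaled for library size, was 502.4 and 426.8 in control and 792.0 and 848.4 after treatment. Both treated libraries lay far above both controls, and the mean rose 1.77-fold, from 464.6 ± 53.5 to 820.2 ± 39.9 (SD, n = 2, log2 change 0.82, SE 0.0899, limma adjusted p = 0.0329 over 11848 genes). Coverage rose for 0.253% of genes and fell for 0.0422%, and by log2 change HSPB1 ranked as number 3 from the top. HIKESHI (chromosome 11, 86302240 to 86345943, plus strand), the carrier that takes HSP70 into the nucleus, had 293.3 and 288.0 in control and 209.8 and 203.3 after treatment. It was 1 of 5 genes whose coverage fell (290.7 ± 3.74 to 206.5 ± 4.57, SD, n = 2, log2 change -0.49, SE 0.0555, limma adjusted p = 0.0329). In bulk RNA fewer cells with a transcript and less of it per cell cannot be told apart.

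Both coverage calls ended without either ascorbic acid library. Without ascorbic acid 1 the adjusted p was 0.0719 for HSPB1 and 0.162 for HIKESHI, and without ascorbic acid 2 it was 0.0530 and 0.179 (limma), while the log2 changes stayed between 0.77 and 0.87 for HSPB1 and at -0.52 and -0.47 for HIKESHI. At those settings 3 rises and 2 falls, and 14 rises and 4 falls, were called over all genes. Gene coverage is taken as the mean depth per gene from its header, and no source defines it.

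The other 7 members did not pass for coverage. HSF1 had 451.6 and 396.9 in control and 460.0 and 473.0 after treatment (log2 change 0.14, SE 0.0758, limma adjusted p = 0.458). BAG3 had 171.5 and 175.0 against 151.7 and 151.2 (-0.19, SE 0.0544, limma adjusted p = 0.206). DNAJB1 had 674.9 and 666.7 against 633.7 and 607.1 (log2 change -0.11, SE 0.0580). HSPA8, HSP90AA1, HSP90AB1 and HSPH1 had log2 changes of -0.01, 0.02, -0.06 and -0.06, with SEs from 0.0652 to 0.0706. HSPB1 was thus the only 1 of the 9 that rose. At an unadjusted p of 0.05 by limma, 1 member was higher (HSPB1) and 2 were lower (HIKESHI and BAG3), against 8.14% and 6.29% of all genes.

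**Figure D4:**
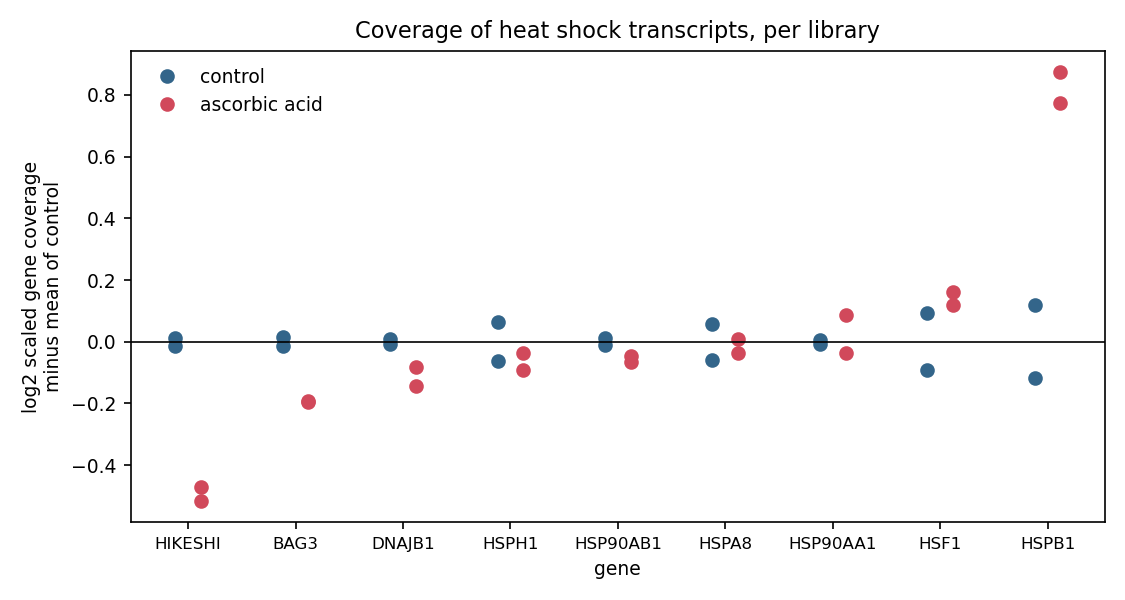
Log2 scaled gene coverage minus its mean over the controls (y axis) for each gene (x axis), with 1 point per library. The HSPB1 libraries with ascorbic acid lie near 0.8 above the control mean and those of HIKESHI near 0.5 below it, while the other genes lie nearer to it.

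The m6A levels of HSPB1 and HIKESHI overlapped between the groups. HSPB1 had 1 tested site, the one at its start (76302675), with 17.1% and 24.0% in control and 18.1% and 27.4% after treatment, so the groups overlapped (edgeR adjusted p = 0.739). Its reads went from 41 and 25 to 94 and 106, the same direction as the gene coverage. HIKESHI had 2 tested sites, 52 and 58 nt after its start and 6 nt from each other. The deeper one, at 86302298, read 19.8% and 23.3% against 23.3% and 21.0% on 262, 344, 305 and 329 reads (edgeR adjusted p = 0.948), and that at 86302292 read 21.9% and 17.5% against 16.1% and 19.1%. The reads at the start of HIKESHI did not drop as the gene coverage did. They are not scaled for library size. A HIKESHI site at 86345829, 114 nt before the gene end, was listed by all 4 libraries. It read 40.9% and 29.4% in control and 31.0% and 35.5% after treatment. Its reads were 22 and 17 in control and 29 and 31 after treatment, so they did not drop either. The site was not tested, since control 2 held only 17 reads there.

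Other genes of chaperones, cochaperones and heat shock regulators give the setting of these 9. The regulators include genes that are not chaperones, such as XPO1 and RPA1. Over 121 genes in 7 lists, 84 could be tested and 42 fell, none rose and 42 did not pass (edgeR), where 56.7% of all genes fell. No gene of the lists rose at an unadjusted p of 0.05 by edgeR or after adjustment by DESeq2, while limma called a rise for HSCB (adjusted p = 0.0497). Of HSP70 and HSP110 chaperones and exchange factors 7 of 12 fell (median log2 odds -0.25), such as HSPA12A, an atypical HSP70, from 65.6% ± 0.626 to 47.4% ± 1.44, and HSPA4, an HSP110 protein, from 63.2% ± 0.893 to 52.6% ± 1.34 (SD, n = 2 here and in the next paragraph). HSPA1B, an inducible HSP70 gene that shares nearly all its sequence with HSPA1A, fell from 85.3% ± 1.17 to 82.3% ± 0.118, though not with limma (adjusted p = 0.0858). Of J-domain cochaperones 7 of 17 fell (median -0.32), with DNAJA1 from 77.1% ± 1.72 to 66.1% ± 0.519, DNAJC16 from 74.2% ± 1.11 to 59.3% ± 1.503 and DNAJC5 from 45.4% ± 0.822 to 36.7% ± 0.302.

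Of the HSP90 cochaperones 9 of 16 fell (median -0.36). STUB1, the ubiquitin ligase CHIP that acts on chaperone clients, went from 78.2% ± 0.192 to 44.9% ± 0.0969, UNC45A, a myosin chaperone, from 53.2% ± 3.76 to 33.3% ± 1.53, and STIP1, which joins HSP70 to HSP90, from 60.01% ± 1.37 to 48.0% ± 1.74. Of heat shock factors and their regulators 11 of 15 fell (median -0.43), with GSK3B, a kinase that acts on HSF1, from 45.3% ± 2.71 to 30.0% ± 0.337, the exportin XPO1 from 40.2% ± 1.54 to 30.8% ± 0.405 and RPA1 from 69.9% ± 1.25 to 61.7% ± 0.249. In the TRiC chaperonin and prefoldin list 3 of 12 fell (median -0.21), with URI1 from 46.7% ± 2.61 to 27.1% ± 1.05, CCT3 from 20.7% ± 0.0454 to 15.9% ± 0.271 and CCT6A from 45.7% ± 1.43 to 36.5% ± 2.29. Mitochondrial chaperones gave 5 of 11 (median -0.37), with CLPB from 51.0% ± 2.26 to 38.6% ± 0.0496, HSPD1 from 37.0% ± 0.148 to 29.1% ± 0.692 and DNAJC11 from 34.0% ± 0.318 to 25.4% ± 1.53. Of other small heat shock proteins only HSPB8 could be tested for m6A, and it did not pass (66.7% ± 11.8 to 63.1% ± 1.64, edgeR adjusted p = 0.687).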

How the data were processed

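Each library came as a table of called sites. Per the submitters' processing notes, the tools included STAR and Trimmomatic 0.39 and the build was hg38 (GRCh38), and the site caller was not given in the sources used here. A and A plus G reads per site are counts deposited unscaled by the authors. The m6A level and the conversion rate are fractions given by the authors, per the file headers; the level equals A over A plus G within 5e-06. The deposited coverage per gene is a signal whose making no header explains. The deposited p-values were not used.

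Sites in all 4 libraries with at least 20 reads were tested with edgeR 4.0.16 (quasi-likelihood, with library terms and an effect of ascorbic acid on A against G), and likewise reads summed per gene. Reads spanning several sites enter each of them. Coverage was scaled by median ratios to each gene's geometric mean and tested with limma 3.58.1 on log2 values. Adjusted p-values are two-sided Benjamini-Hochberg values over all features, with a threshold of 0.05. SEs of m6A changes come from edgeR's effect and F value, and those of coverage from limma's variance estimate. Alternatives used limma on log2 odds (0.5 added to A and G), DESeq2 1.42.0, other read minimums, a replicate block and leaving out each library. The edgeR tests and the limma test of coverage were tried on simulated data, and the alternative tests were not. The simulated m6A reads had no spread between libraries beyond sampling, so they cannot show how edgeR deals with such spread. R 4.3.3 and Python 3.11.15 were used, with pandas 2.3.3, matplotlib 3.10.9, scipy 1.17.1 and numpy 2.4.6. Gene spans and promoters are RefSeq's (GRCh38.p14), and no transcript annotation was at hand, so sites are placed by distance to gene ends and starts.

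The members and lists were chosen with earlier results of these data known. Named sites are all member sites past the threshold and, for a member without one, its deepest site; other sites were named after their values were seen. Named list genes have the 3 smallest p-values of their list. No source used here says whether PCR duplicates were removed.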

Additional observations from a re-analysis of the deposited data

How the results depend on the processing

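Over the named sites, genes and coverages, 342 alternative values of called results kept direction and call. Another 53 kept direction but did not pass, and none reversed. The tally includes list genes named for the smallest p-values of their list, of which only HSPA1B lost a call (with limma). The other values that did not pass were those of the members, so the tally overstates how stable the members' calls were. Limma on log2 odds called 5 member sites (13.3% of all tested sites), 1 member gene (38.1% of all genes) and 1 rising gene of the chaperone lists (HSCB). Leaving out 1 library gave 7 to 12 falling member sites, 2 to 6 falling genes (over all genes 43.2% fell without ascorbic acid 1 and 40.9% without ascorbic acid 2), 0 to 1 rising genes of the lists (CCT5 without control 2), and 0 to 1 members with risen and 0 to 1 with fallen coverage. With a lone library in a group, that library is assumed to vary like the other group.

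Reversals were confined to results that did not pass. Leaving out 1 library moved the log2 odds of the HSPB1 site between -0.17 and 0.60 (the gene likewise), of the HIKESHI site between -0.10 and 0.19, of HIKESHI between -0.067 and 0.0043, of HSP90AA1 between -0.30 and 0.065 and of HSPB8 between -0.81 and 0.29. It moved the log2 coverage of HSPA8 between -0.069 and 0.045, which scaling by total coverage put at 0.0048, and of HSP90AA1 between -0.036 and 0.085.

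With the replicate number as a block, 15 member sites and 5 member genes fell and the coverage calls were the same in number, 1 rise and 1 fall. Over all genes the block gave 70 rises and 22 falls in coverage, against 30 and 5. Deviations of same-numbered libraries correlated at -0.0053 for site log2 odds and at -0.163 for coverage, and the labels do not say that the numbers pair samples. With the pairing crossed, an alternative chosen after seeing the data, 85 genes rose and 22 fell in coverage. A coverage minimum of 10 removed no gene. With 50 reads 47 member sites remained, of which 14 fell. Correcting for the unconverted share was also chosen after seeing the data. It turned the change in the summed level of HIKESHI from -0.34 to 0.008 percentage points. The changes of the other members kept their direction.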

Other observations

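Of the other genes in the lists of chaperones, cochaperones and regulators, 92 had gene coverage in all 4 libraries. HSPB8, a small heat shock protein that forms a complex with BAG3, was the only one of them whose coverage passed the threshold, at 36.8 ± 0.803 after treatment against 23.6 ± 1.05 in control (SD, n = 2, log2 change 0.64, limma adjusted p = 0.0329). Coverage rose for 0.253% of all genes, and how the HSPB8 call fares in the alternatives is not given here. None of the 92 fell in coverage by limma, while at an unadjusted p of 0.05 4 of the 92 were higher and 5 lower, against 8.14% and 6.29% of all genes. HSPB8 was also the only gene of the small heat shock list with coverage in every library. The values of HSPB1, described above, and of HSPB8 were each higher in both treated libraries than in both controls. How many of all genes were so was not counted.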
